A study of Mus musculus with 14 samples.

Results

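The effect of a sham eye injection on retinal microglia was examined by setting 4 libraries titled sham-injected retina against 4 titled naïve retina (naive below), 8 of the 14 libraries of the series, chosen by those titles alone. All 8 came from wild-type C57BL/6 mice aged 12 weeks, and the groups differed by the labelled treatment, a sham injection against none. The labels do not say what was injected, by which route, or how long before the cells were taken. The 6 libraries outside this comparison, 3 from retinas injected with microbeads and 3 from retinas contralateral to one, share the strain, genotype and age, and they entered the fit to estimate the spread and are quoted for a few genes. The sorted cells carried CD11b and Fcrls but not Ly6c, 100 to 600 of them per retina, and each retina gave 1 library by SMART-Seq2, which copies whole transcripts from small numbers of cells. The gate leaves out Ly6c-positive monocytes and any microglia without Fcrls at the surface. Since the labels do not tie retinas to animals, p-values measure the spread between these retinas.

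The macrophages that live in the retina are its microglia. At rest they express a homeostatic program that includes P2ry12, a receptor for nucleotides released by injured cells, and Cx3cr1, the receptor for a chemokine made by neurons. On a stimulus macrophages first transcribe immediate early genes, which encode transcription factors, then NF-kB targets such as cytokines and chemokines. Over a longer time microglia in degenerating tissue can take on the MGnD state, marked by Apoe and by antigen presentation and lysosomal genes. A sham injection is the control for what the procedure itself does, so this comparison asks what the procedure leaves in the microglia.

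Reads assigned to genes numbered 8.50 to 13.6 M in the sham and 7.06 to 12.2 M in the naive libraries, with 14587 to 15256 and 14030 to 16271 genes read. Levels are given as CPM, read counts scaled to library size with TMM factors, for libraries 1 to 4 of a group in that order. The sort markers matched the gate: Itgam, which encodes CD11b, was at 347, 536, 365 and 461 CPM in sham and 281, 382, 347 and 337 CPM in naive libraries, Fcrls was at 501, 811, 474 and 715 and 486, 924, 839 and 569 CPM, and Ly6c2 had 0 reads in all 8. Of the 14 microglia markers all 14 were measured, with a median log2 fold change of 0.20 (0.073 without naive 1). The sham libraries resembled each other more evenly than the naive ones. Spearman correlations over genes ran from 0.781 to 0.796 between sham libraries, from 0.691 to 0.842 between naive libraries and from 0.700 to 0.833 across the groups, given as a description. Naive 1 and naive 4 had the lowest mean correlation with the other 7 libraries, 0.715 and 0.719, against 0.768 to 0.8003 elsewhere, and naive 1 was the shallowest of the 8. Medians and counts of the lists without single libraries are given beside many of those that they moved, but not beside all.

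No gene passed the test between sham and naive microglia. Of 14279 genes tested with edgeR's quasi-likelihood test and Benjamini-Hochberg adjustment, 0 were called (0.00%), and the smallest adjusted p was 1. At an unadjusted p under 0.05 there were 380 genes (2.66%), 187 higher in sham (1.31%) and 193 lower (1.35%). The libraries of the 2 groups did not overlap for 425 genes (2.98%), 230 of them higher in sham (1.61%) and 195 lower (1.37%). Among genes of at least 10 CPM in either group, these shares were 2.03% and 1.49%. With limma voom 0 genes were called, with the Wald test of DESeq2 26, and with edgeR run without a filter on low counts 14, which included C4b, Ccl12, Hspa1a, H2-Aa, H2-Ab1, Cd74, Fn1 and Cd209a, all higher in sham. C4b and Cd209a were the named genes called by both. Without the filter 2148 of 25656 genes (8.37%) had an unadjusted p under 0.05, against 2.66% with it. Its calls also included AY036118, Gm42418 and Lars2. The reason for this larger share was not tested, and adjusted p values of that run are to be read with it in mind. The shares from edgeR with the filter are the background for every count of listed genes below. No gene named below passed that edgeR test unless another test is named with it.

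The absence of calls does not show that the groups were alike, because most genes were measured loosely. Among 9207 genes of at least 10 CPM in either group, the 95% interval of the log2 fold change lay within -1 and 1 for 948 (10.3%), so that a difference of more than 2-fold in either direction lay outside it for those genes, while for 5565 (60.4%) the interval ran past both -1 and 1. The median standard error was 0.78 for genes of at least 10 CPM and 0.36 for genes of at least 100 CPM. Direction moved with level: 48.7% of all genes had a log2 fold change above 0, with a median of -0.02, but 60.6% of genes from 100 to 1000 CPM did, with a median of 0.07, and 81.4% of the 70 genes of at least 1000 CPM, with a median of 0.19. Lists of abundant genes are to be read against those values.

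**Figure D1:**
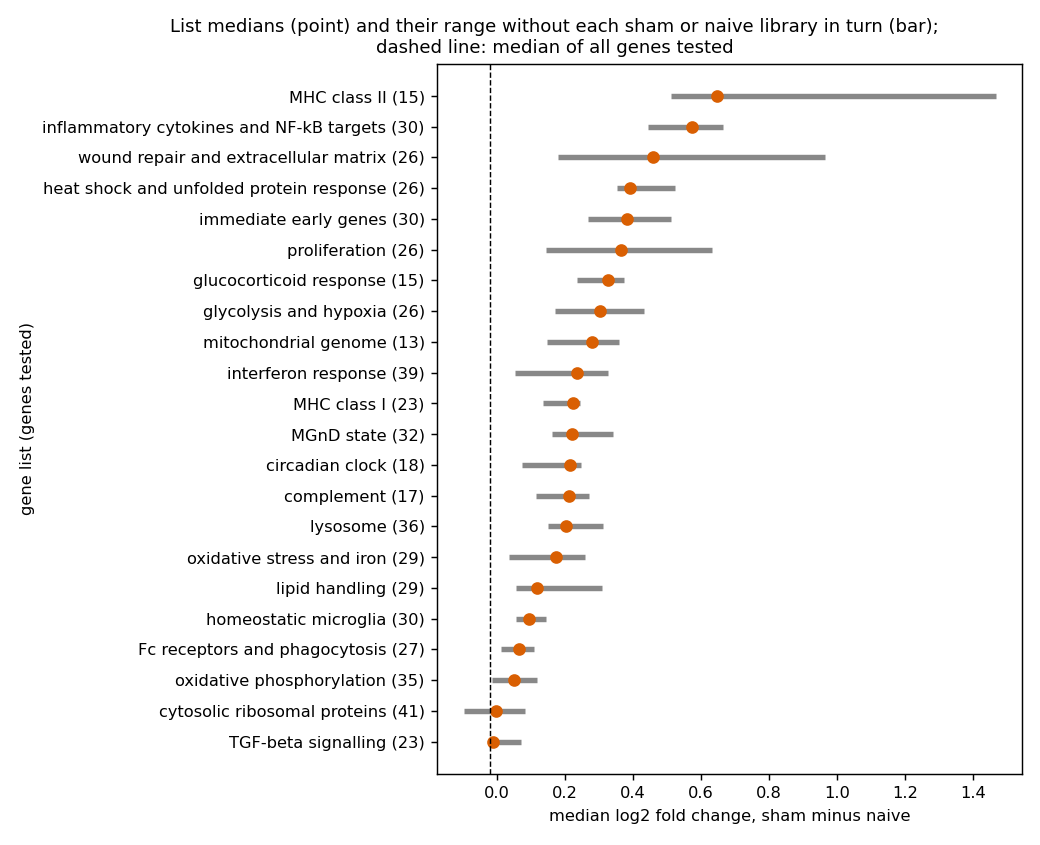
Median log2 fold change (sham minus naive) of each program list with at least 10 genes tested (points), with the range of that median when each sham or naive library is left out in turn (bars); the dashed line is the median of all genes tested, -0.02. MHC class II, inflammatory and wound repair lists lie farthest to the right, and ribosomal protein and TGF-beta lists lie at the dashed line.

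Immediate early genes stood among the higher genes of the sham libraries. Of 30 measured, 21 had a log2 fold change above 0, 4 were higher at an unadjusted p under 0.05 and 0 lower, and 5 did not overlap between groups, all higher in sham. The median of the list was 0.38. Egr1, a zinc finger transcription factor induced within minutes of many stimuli, was at 3212, 3448, 2342 and 2690.5 CPM in the sham and 1328, 1992, 2153 and 1895 CPM in the naive libraries. Every sham library lay above every naive one, with a log2 fold change of 0.67 (SE 0.22, unadjusted p = 0.00777). Egr2, a related factor, was at 84.0, 86.9, 50.2 and 43.5 against 13.2, 20.1, 22.9 and 12.1 CPM, again without overlap and with the widest separation of the list, 3.88-fold between means (log2 fold change 1.95, SE 0.59, unadjusted p = 0.00402).

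Atf3, a stress-induced repressor, was at 582, 695, 278 and 285 CPM in sham and 98.4, 247, 258 and 245 CPM in naive libraries (log2 fold change 1.12, SE 0.45). Its sham libraries formed a high pair, 1 and 2, and a pair, 3 and 4, that lay just above the naive ones. Btg2, an antiproliferative gene, was at 2678, 2703, 1717 and 1980.5 against 426, 1563, 1796 and 1049 CPM, and sham 3 lay below naive 3. Jun, a subunit of the AP-1 transcription factor, was at 5858, 5433, 4465 and 4729 against 2314, 4549, 3747 and 3116 CPM and overlapped through naive 2. The other genes without overlap were Junb, another AP-1 subunit, and Klf2, a zinc finger factor that restrains macrophage activation, both named after their values were seen.

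Naive 1 was the lowest library for Egr1, Atf3, Btg2 and Jun. Without naive 1 the list had a median of 0.27 with 2 genes higher at an unadjusted p under 0.05, and without sham 1 or without sham 2 it had 2 as well, at medians of 0.37 and 0.40. Without naive 1 and naive 4, an alternative chosen after seeing the data, the list's median was 0.22 and 0 of its genes were higher at an unadjusted p under 0.05. What sets these libraries apart was not tested.

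Genes of protein folding formed the second group. Of 26 measured genes of the heat shock and unfolded protein response, 21 had a log2 fold change above 0, 5 were higher at an unadjusted p under 0.05 and 0 lower, and 5 did not overlap, all higher in sham. The median was 0.39, and without naive 1 and naive 4 it was 0.42 with 3 genes at an unadjusted p under 0.05. Hspa8, the constitutive cytosolic chaperone of the HSP70 family (mm10 chr9:40800984-40810087, plus strand), was at 2658, 2955, 1840.5 and 2096 CPM in sham and 1086, 1514, 1338 and 1207 CPM in naive libraries. The lowest sham library stood above the highest naive one, and the means differed 1.86-fold (log2 fold change 0.89, SE 0.25, unadjusted p = 0.00218). Hspa5, the chaperone of the endoplasmic reticulum, was at 1013, 1323, 976 and 1265 against 489, 757, 823 and 584 CPM, also without overlap (log2 fold change 0.79, SE 0.23, unadjusted p = 0.0027).

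Hspa1a, the inducible cytosolic HSP70, varied most. It was at 851, 513, 193 and 146 CPM in sham and 1.90, 149, 111 and 50.6 CPM in naive libraries, close to absent in naive 1, and sham 4 lay just below naive 2 (log2 fold change 2.44, SE 0.78). Dnajb1, the HSP40 partner of these chaperones, was at 419, 399, 174 and 231 against 135, 168, 165 and 101 CPM without overlap (log2 fold change 1.10, SE 0.37). As for Atf3, sham 1 and sham 2 were the high libraries for Hspa8, Hspa1a and Dnajb1. The remaining genes without overlap were Hsp90ab1, a cytosolic HSP90, and Herpud1, a gene of the unfolded protein response, both named after their values were seen.

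Promoter windows were looked up for Hspa8, Hspa5, Hspa1a, Dnajb1, Nfkbia, Ccl2, Ccl4, Ccl12 and Tnf and searched for motifs of 3 stress pathways. Those are the unfolded protein response, the heat shock response and NF-kB signalling. Hspa8, Ccl2 and Ccl4 had no window, and the windows of Dnajb1, Ccl12 and Tnf held no match. Only bases shortly before the start site were searched, for exact letter patterns, so this does not show that those promoters lack such sites. The bases before the start site are shown for the genes with a match, Hspa5, Hspa1a and Nfkbia (described next). The sequences are from RefSeq, build GRCm38.p6, each read 5′ to 3′ on the gene's strand and ending at the base before the start site, and capitals mark the match to a motif.
Hspa5, chr2:34771995-34772089, plus strand: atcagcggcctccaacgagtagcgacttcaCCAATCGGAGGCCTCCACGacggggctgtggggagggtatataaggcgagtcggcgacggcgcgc
Hspa1a, chr17:34972157-34972290, minus strand: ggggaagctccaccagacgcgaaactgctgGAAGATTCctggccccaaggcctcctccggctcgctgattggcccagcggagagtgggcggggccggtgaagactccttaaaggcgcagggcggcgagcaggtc
Nfkbia, chr12:55492648-55492706, minus strand: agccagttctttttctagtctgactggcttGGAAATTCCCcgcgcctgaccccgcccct
The capitals in Hspa5 match the endoplasmic reticulum stress element, searched on both strands as CCAAT and CCACG with 9 bases of any kind between, and lie at positions -65 to -47 from the start site. This motif is held by 0.113% of 32851 promoter windows. The capitals in Hspa1a, at -104 to -97, match a heat shock element of 2 units (GAANNTTC or TTCNNGAA), a short motif that 12.8% of windows hold, searched after the form with 3 units had no match there. The capitals in Nfkbia, at -29 to -20, match an NF-kB motif, GGAA and TCCC (or GGGA and TTCC) with 2 bases of any kind between, held by 1.21% of windows. The matches describe the sequence and do not show that a factor was bound.

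**Figure D2:**
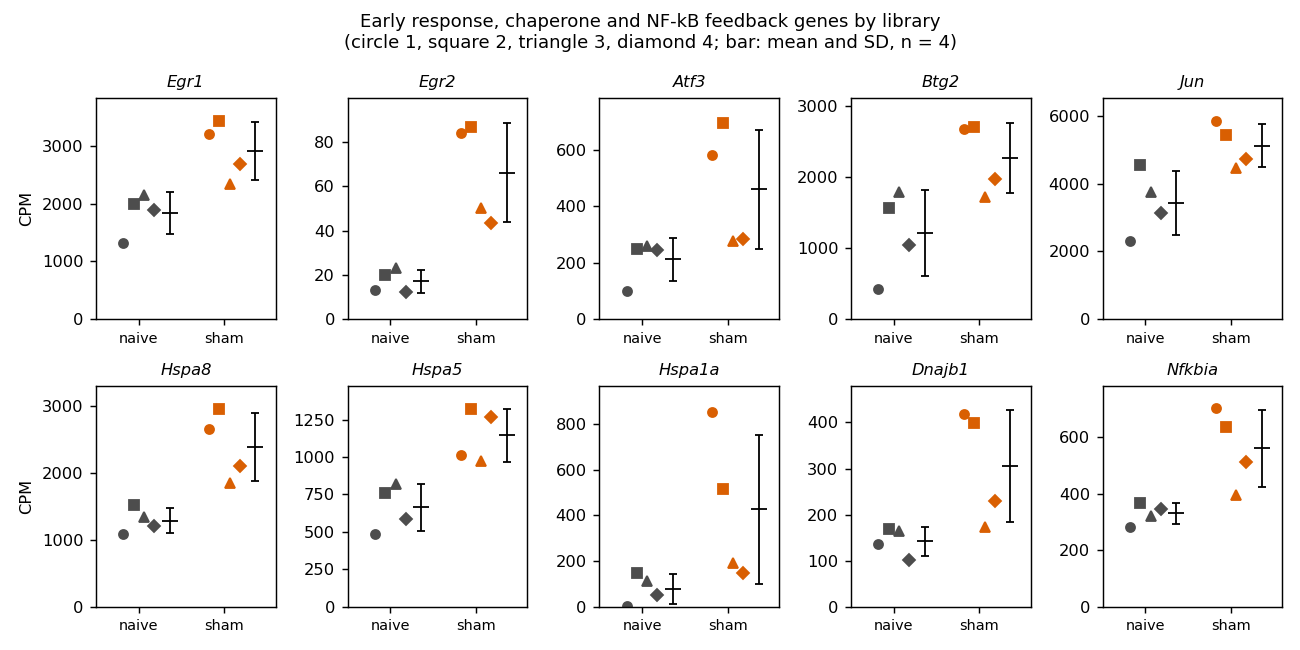
CPM of early response, chaperone and NF-kB feedback genes in each naive (grey) and sham (orange) library, with the group mean and SD at the right of each group; each y axis starts at 0 CPM. Egr1, Egr2, Atf3, Hspa8, Hspa5, Dnajb1 and Nfkbia show no overlap between groups, whereas Btg2, Jun and Hspa1a overlap, and sham 1 and sham 2 hold the highest values of Atf3, Hspa1a and Dnajb1.

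Inflammatory genes pointed the same way. Of 30 measured cytokine and NF-kB target genes, 24 had a log2 fold change above 0, 7 were higher at an unadjusted p under 0.05 and 0 lower, and the median was 0.57. Nfkbia, which encodes the inhibitor that returns NF-kB to the cytosol, was at 702, 635, 394 and 513 CPM in sham and 282, 369, 322 and 347 CPM in naive libraries. The groups did not overlap, and the naive libraries lay close together (log2 fold change 0.76, SE 0.28, unadjusted p = 0.0124). In all, 4 genes of the list had no overlap, Nfkbia and, named after their values were seen, Nfkbiz, Bcl2a1b and Tlr2.

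Tnf, the cytokine tumour necrosis factor, was at 135, 289.7, 117 and 213 CPM in sham and 27.0, 83.3, 134 and 70.9 CPM in naive libraries, and sham 3 lay below naive 3 (log2 fold change 1.26, SE 0.46). The chemokines showed the same overlap. Ccl2, which draws monocytes, was at 128, 223, 89.5 and 157 against 24.0, 65.6, 103 and 60.8 CPM, with sham 3 below naive 3 (log2 fold change 1.24, SE 0.46). Ccl12, a second monocyte chemokine, was at 419.9, 742, 356 and 199 against 95.6, 170.4, 215 and 97.3 CPM and overlapped only between sham 4 and naive 3 (log2 fold change 1.57, SE 0.51, unadjusted p = 0.0061). Ccl3, a chemokine that draws leukocytes, had a log2 fold change of 0.76 (SE 0.39) and Ccl4, a related chemokine, one of 1.10 (SE 0.44), with naive 1 the lowest library of the 8 for both.

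Single libraries carried part of this group. Without sham 2, which was highest of the 8 for Tnf, Ccl2, Ccl4 and Ccl12, the list kept a median of 0.48 but had 2 genes higher at an unadjusted p under 0.05. Without naive 1 it had 4, at a median of 0.48. Without naive 1 and naive 4, or without sham 2 and naive 1, it had 0, at medians of 0.50 and 0.41.

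C4b, a complement component that feeds the classical pathway, had the smallest p of all genes. It lies on mm10 chr17:34728380-34743882, minus strand, beside a close relative, so reads could be split between the copies. It was at 35.9, 97.1, 10.9 and 29.0 CPM in sham and 11.4, 4.72, 7.16 and 1.64 CPM in naive libraries, 43.2 ± 37.4 against 6.23 ± 4.11 (mean ± SD, n = 4 each). Sham 3 lay just below naive 1, so the groups overlapped, and sham 2 was the highest (log2 fold change 2.80, SE 0.72, unadjusted p = 0.00111). It was called by the Wald test of DESeq2 with Benjamini-Hochberg adjustment (adjusted p = 0.0424) and by edgeR without the filter (adjusted p = 1.035e-06), but not by edgeR with it (adjusted p = 1) or by limma voom (adjusted p = 0.718).

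Of 17 complement genes measured, 13 had a log2 fold change above 0, and C4b was higher and Cd59a lower at an unadjusted p under 0.05, with a median of 0.21 (0.12 without naive 1). The largest fold changes beside C4b came from genes at low counts. Cfb, which encodes factor B of the alternative pathway, was at 0.669, 8.36, 0.683 and 1.00 CPM in sham and 0, 0.899, 0.398 and 0 CPM in naive libraries, highest in sham 2 (log2 fold change 2.98, SE 1.99). Cd59a, an inhibitor of the membrane attack complex, had 0 reads in every sham library and was at 0, 0.150, 0 and 18.6 CPM in naive libraries, so that its value rests on naive 4. C3, the central component, was at 0, 0, 0 and 0.573 against 11.1, 0, 9.31 and 0 CPM (log2 fold change -5.02, SE 2.69). Cfb and C3 were named after their values were seen. C1qa, a subunit of the C1q recognition molecule, was at 3553, 3589, 3476 and 3579 CPM in sham and 3060.0, 3045, 3178 and 2962 CPM in naive libraries, a small difference without overlap (log2 fold change 0.21, SE 0.19). C1qc, a second subunit, went the other way at 1644, 1274, 2916 and 3749.5 against 3718, 3537, 3835 and 2723 CPM, with sham 1 and sham 2 lowest (log2 fold change -0.53, SE 0.30).

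MHC class I presents peptides from inside the cell, and its genes had a median of 0.23. Of 23 genes 17 had a log2 fold change above 0, and H2-K1 alone was higher at an unadjusted p under 0.05 (median 0.14 without naive 3). Without naive 1 there were 0 such genes, at a median of 0.21. H2-K1, a classical class I heavy chain, was at 1459, 1506, 1411 and 1305 CPM in sham and 829, 907, 1046 and 919.5 CPM in naive libraries, tight within each group and without overlap (log2 fold change 0.62, SE 0.25, unadjusted p = 0.0232). H2-D1, the other classical heavy chain, was at 1257, 1311, 1430.4 and 1025 against 841, 1039, 1041 and 884 CPM and overlapped through sham 4 (log2 fold change 0.40, SE 0.23). Class I genes resemble each other, so reads could be shared between them, and the sources used here do not say how the authors' counting treated such reads.

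MHC class II, which presents peptides taken up from outside, had the highest median of the program lists, 0.65, and depended on single libraries. Of 15 genes 13 had a log2 fold change above 0 and 4 were higher at an unadjusted p under 0.05: H2-Aa, H2-Ab1, Cd74 and Ciita. The libraries of these 4 overlapped between groups. Those of 1 other gene of the list, not named here, did not and were higher in sham. H2-Aa, a class II chain, was at 220.1, 846, 169.6 and 84.7 CPM in sham and 6.10, 198, 27.3 and 120.0 CPM in naive libraries. Sham 2 stood far above the rest and sham 4 below naive 2 and naive 4. Cd74, the invariant chain that guides class II, was at 229, 859, 211 and 92.2 against 30.4, 262, 51.7 and 138 CPM with the same order of libraries within sham. Ciita, the master activator of class II transcription, was at 6.02, 61.4, 0 and 4.22 against 0.136, 2.55, 0 and 0 CPM. Without sham 2 the list had a median of 0.51 with 0 genes higher and 1 lower at an unadjusted p under 0.05. Without naive 3 it had 0 higher at a median of 0.60. Without naive 1 the median was 0.57 with 1 such gene, without sham 2 and naive 1 it was 0.23 with 0 higher, and without naive 4 it was 1.47 with 2.

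Genes of dendritic cells and of other macrophages were read in sham 2 as well. Cd209a, a lectin of dendritic cells and some monocytes, was at 85.5 CPM in sham 2 and had 0 reads in the other 7 libraries. Clec10a, a galactose-binding lectin, was at 33.1 CPM there with 0 reads in the other 7, and the related Mgl2 was at 14.8, 58.6, 10.8 and 0 CPM in sham and 0, 0, 0 and 0.329 CPM in naive libraries. Clec10a was called by the Wald test of DESeq2 with Benjamini-Hochberg adjustment (adjusted p = 4.08e-05), but by neither edgeR nor limma voom. Ccr2, the receptor for Ccl2 on monocytes, was at 0, 40.2, 0 and 0 against 2.17, 3.30, 5.33 and 0 CPM, and Vim, an intermediate filament gene, was at 11.2, 93.8, 18.9 and 11.2 against 1.085, 0, 0 and 18.2 CPM. Sham 2 was the highest library for each of these 5 genes. S100a4, Fn1 and Plac8, which monocytes express, had 0 reads in the naive group, and in the sham libraries S100a4 was at 3.35, 18.1, 0 and 0, Fn1 at 0, 14.3, 8.50 and 0 and Plac8 at 3.90, 2.67, 0 and 0 CPM. Vcan, which encodes the matrix proteoglycan versican and is also expressed by monocytes, went the other way at 0.112, 0, 0 and 0 CPM in sham and 0.136, 0.150, 0 and 12.1 CPM in naive libraries, nearly all of it in naive 4.

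Over the whole marker list for infiltrating monocytes and macrophages, 10 of 15 genes were measured, 8 had a log2 fold change above 0, and 3 (S100a4, Fn1 and Plac8) were higher and 1 (Vcan) lower at an unadjusted p under 0.05. Without sham 2, 6 of 10 were above 0. With limma voom 7 of 10 were, and 0 genes were higher or lower at that threshold. In a fit of the sham and naive libraries alone 5 were measured and 4 were above 0, again with 0 higher or lower at that threshold. The summed level of the listed markers ran from 25.2 to 123 CPM in sham and from 15.7 to 57.6 CPM in naive libraries. The defining markers Ly6c2, Chil3 and Clec4e were at 0 in all 8, as was Cd209f among the border-associated macrophage markers. For border-associated macrophages, which line vessels and the eye's borders, 11 of 13 markers were measured, 9 had a log2 fold change above 0, and summed levels ran from 394 to 647 CPM in sham and from 385 to 563 CPM in naive libraries. Their median was 0.63, with 2 higher and 0 lower at an unadjusted p under 0.05. Without sham 2 it was 0.20, with 7 of 11 above 0, 1 higher and 1 lower. The part of other myeloid cells in the class II values was not tested. In libraries of pooled cells, more cells of a type and more RNA per cell cannot be told apart.

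**Figure D3:**
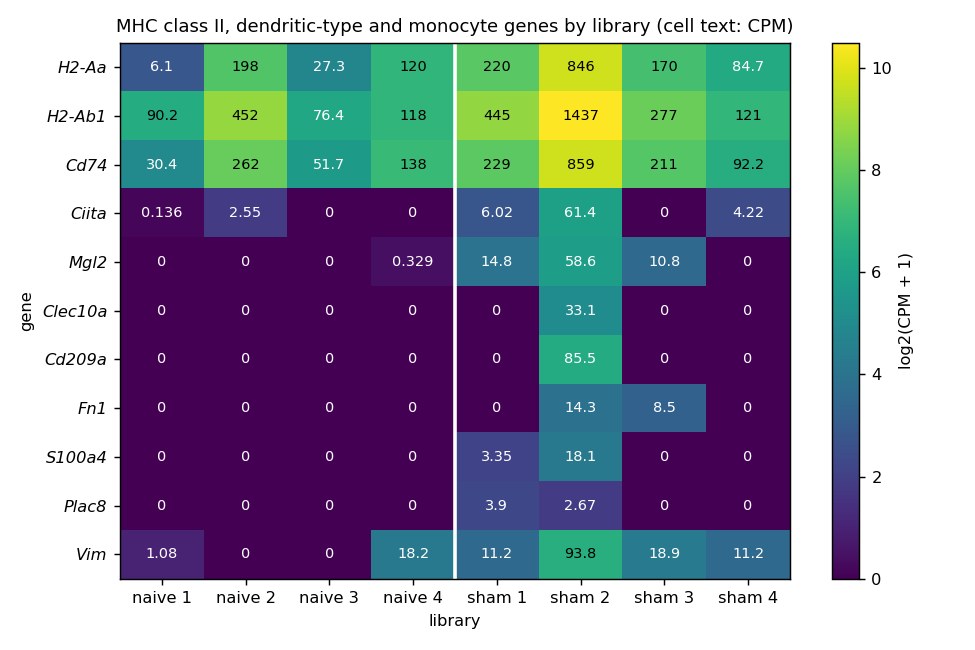
Level of MHC class II, dendritic-type and monocyte genes in each naive and sham library, with colour for log2(CPM + 1) and the CPM written in each cell. The column of sham 2 is the brightest for every gene but Plac8, and Clec10a and Cd209a are above 0 there only.

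Genes of the interferon response held none past an unadjusted p of 0.05. Of 39 genes 23 had a log2 fold change above 0, and the median was 0.24, but 0.054 without naive 1 and 0.11 without sham 4. Ifitm3, an antiviral membrane protein, was at 73.9, 77.7, 53.1 and 68.3 CPM in sham and 50.3, 29.7, 33.7 and 37.8 CPM in naive libraries, without overlap (log2 fold change 0.85, SE 0.44). Rsad2, an antiviral enzyme, was at 16.2, 25.3, 13.4 and 46.0 against 0, 1.95, 8.52 and 3.53 CPM, also without overlap but low in every library (log2 fold change 2.84, SE 1.55).

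Genes of the homeostatic program scattered around 0 between sham and naive microglia. Of 30 genes 18 had a log2 fold change above 0 and 12 below, with a median of 0.09 (0.056 without naive 1 and 0.14 without sham 3). Egr1, which the list shares with the immediate early genes, was the only one at an unadjusted p under 0.05. The libraries did not overlap for 1 gene higher in sham, Egr1, and for 1 gene lower in sham, not named here. P2ry12 was at 2184, 2042, 2013 and 2084 CPM in sham and 1229, 2329, 2093 and 1576 CPM in naive libraries. The sham libraries lay close together within the wider naive range, with a log2 fold change of 0.20 and a 95% interval of -0.62 to 1.03. Tmem119, a microglial surface protein, was at 2689, 3082, 2422 and 3011 against 2014, 2759.7, 2417 and 2294 CPM (interval -0.23 to 0.71). Cx3cr1 was at 5125, 5822, 4820.0 and 5658 against 3456, 4997, 5300.0 and 4268 CPM (interval -0.17 to 0.67).

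Csf1r, the receptor on which microglial survival depends, had an interval of -0.21 to 0.54, and Tgfbr1, a receptor for the TGF-beta that maintains microglial identity, one of -0.59 to 0.43. For Tmem119, Cx3cr1, Csf1r and Tgfbr1 a difference of 2-fold or more lay outside the interval. Sall1, the transcription factor of microglial identity, was at 395, 347, 429 and 382 against 557, 377, 359 and 635 CPM, with the 2 highest values in naive 1 and naive 4 (interval -1.01 to 0.39). For Sall1 and P2ry12 the interval reached past a 2-fold difference on one side. Without naive 1 and naive 4 the log2 fold change of P2ry12 was -0.09 and that of Sall1 0.08.

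**Figure D4:**
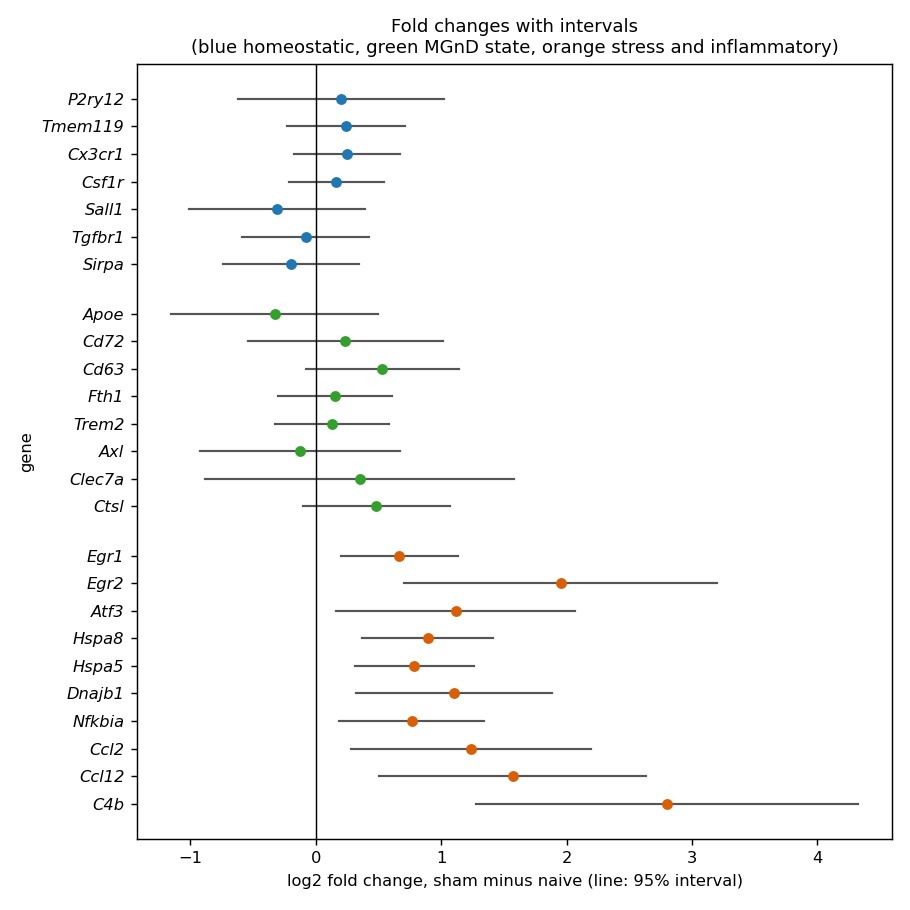
Log2 fold change (sham minus naive) of named genes with its 95% interval from the edgeR fit; blue, homeostatic genes; green, MGnD genes; orange, stress and inflammatory genes. The intervals of all blue and green genes shown cross 0, and those of the orange genes, which were named for their small unadjusted p or as state genes, lie above 0 before adjustment.

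The MGnD state was looked for gene by gene, since Apoe is its hallmark. Of 32 genes 23 had a log2 fold change above 0, 2 were higher (Ccl2 and Ccl4) and 1 lower (Spp1) at an unadjusted p under 0.05, and the median was 0.22. Without sham 2 the counts were 0 higher and 3 lower at a median of 0.20, without naive 1 they were 1 and 1 at 0.16, without naive 2 they were 1 and 0 at 0.34, without naive 3 they were 3 and 0 at 0.33, and without naive 4 they were 4 and 1 at 0.26. Apoe, a lipid carrier, was at 3284, 4928, 5568 and 3268 CPM in sham and 7578, 5379.9, 4969 and 3472 CPM in naive libraries, overlapping throughout, with a log2 fold change of -0.33 and an interval of -1.15 to 0.49. Cd72, an inhibitory lectin receptor, was at 78.5, 86.3, 62.4 and 58.5 against 71.7, 61.8, 61.1 and 47.7 CPM (interval -0.54 to 1.01). Trem2, a lipid-sensing receptor, was at 1743, 1653, 1601 and 1655 against 1701, 1439, 1384 and 1547 CPM (interval -0.32 to 0.59), and a 2-fold difference lay outside its interval.

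In 2 genes of the list the libraries did not overlap, Cd63 and, named after its values were seen, Ctsz, a cathepsin. Cd63, a tetraspanin of late endosomes and lysosomes, was at 263, 368, 274 and 250.2 CPM in sham and 202, 198, 196 and 202 CPM in naive libraries, the naive values within a few CPM of each other (log2 fold change 0.53, SE 0.29, unadjusted p = 0.0831). Spp1, which encodes osteopontin, had 0 reads in every sham library and in naive 1 and naive 4, and 8.54 and 6.29 CPM in naive 2 and naive 3. Spp1 was called lower in sham by the Wald test of DESeq2 with Benjamini-Hochberg adjustment (adjusted p = 7.15e-08). Neither limma voom (adjusted p = 0.654) nor edgeR, with the filter or without it, called it. Gpnmb, a glycoprotein of lipid-laden macrophages, was below 1 CPM in 7 of the 8 libraries and at 9.59 CPM in naive 2. Clec7a, Axl, Itgax, Cst7 and Lpl, further genes of this state, had log2 fold changes of 0.35, -0.13, 1.66, 0.19 and -0.94, each with an interval across 0.

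Side by side with the microbead libraries, the sham means of Apoe and Cd72 lay near those of naive retinas, and those of C4b and Ccl12 lay in between. These comparisons share the sham and naive libraries and are given as values. Microbead 1 held 1.34 M reads and is the shallowest library of the series. Apoe averaged 5349.6 ± 1697 CPM in naive and 4262 ± 1168 CPM in sham (n = 4 each) against 32505 ± 18403 CPM in microbead libraries (n = 3), a log2 fold change of 2.93 over sham (adjusted p = 0.0366, edgeR). Cd72 averaged 60.6 ± 9.87 in naive, 71.4 ± 13.2 in sham and 418 ± 214 CPM in microbead libraries (2.55 over sham, adjusted p = 0.0429, edgeR). These were the 2 genes called between microbead and sham (0.0140% of genes).

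C4b averaged 6.23 ± 4.11 CPM in naive, 43.2 ± 37.4 in sham, 32.4 ± 25.2 in contralateral and 776 ± 275 in microbead libraries. Microbead against naive was called for C4b (log2 fold change 6.97, adjusted p = 0.00414, edgeR), 1 of 30 genes (0.210%), while microbead against sham was not (log2 fold change 4.17, adjusted p = 0.0664). Ccl12 averaged 144 ± 58.3, 429 ± 228, 262 ± 66.9 and 2270.1 ± 2110.5 CPM in the same order, and again microbead was called against naive (adjusted p = 0.00986, edgeR) and not against sham (adjusted p = 0.0783). Microbead 1 and microbead 3 were at 4600 and 1725 CPM for Ccl12. Microbead 2, at 485 CPM, lay within the sham range of 199 to 742 CPM. Whether the 2 microbead comparisons differ from each other for a gene is the sham against naive test itself, which called neither gene.

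The early response and chaperone genes showed another order. Hspa8 averaged 1286 ± 184 CPM in naive, 2387 ± 509.7 in sham, 2422 ± 952 in contralateral and 2344 ± 427 in microbead libraries. Egr1 averaged 1842 ± 359, 2923 ± 500.1, 2706 ± 623 and 2906 ± 658 CPM in that order. The naive group had the lowest mean of the 4 groups for both, and for Egr2, Atf3, Hspa1a and Dnajb1 too. These genes were named for a small p with sham above naive, so a low naive mean comes with that choice. The contralateral means did not hold for each library. Contralateral 3 lay within the naive range for Hspa8 (1352 CPM), Egr1 (2010 CPM), Egr2 (22.4 CPM) and Atf3 (178 CPM). It lay above that range for Hspa1a (315 CPM) and Dnajb1 (177 CPM). Between contralateral and naive libraries 0 genes were called.

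**Figure D5:**
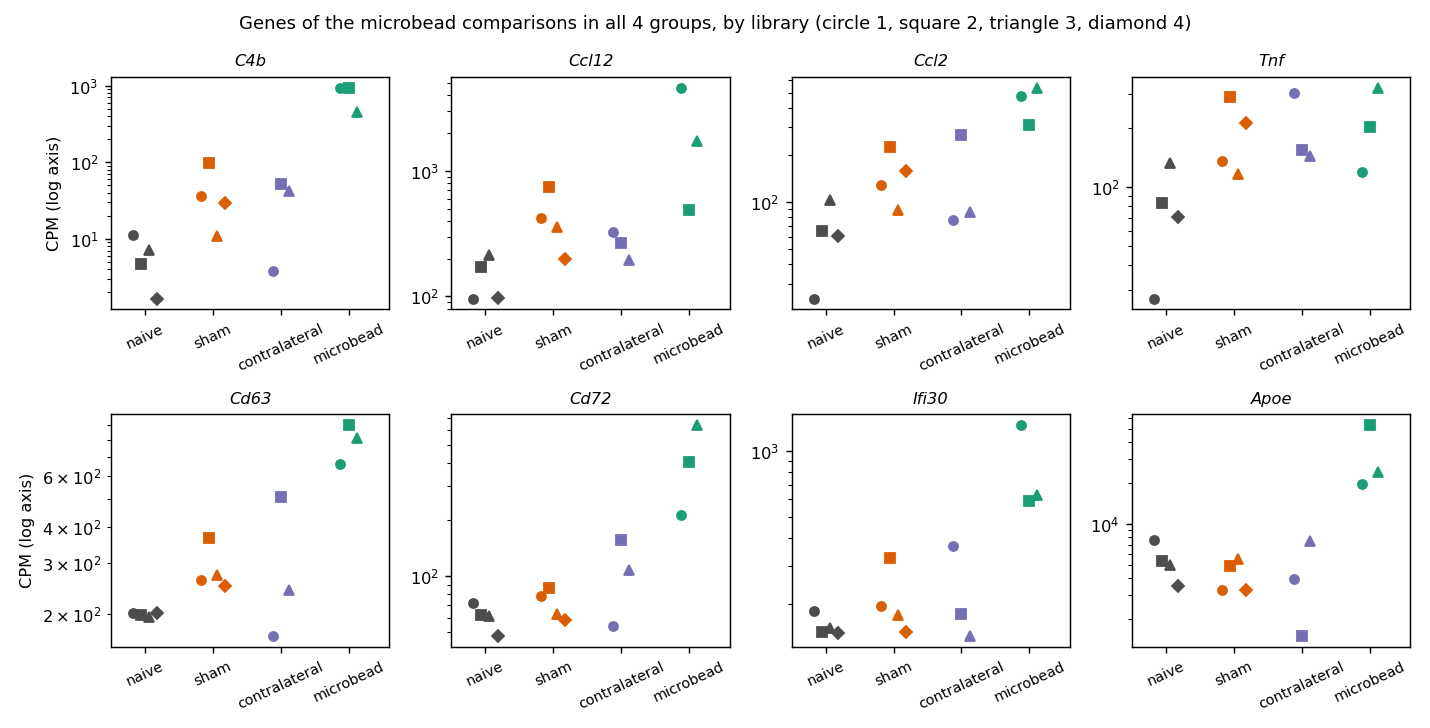
CPM (log axis, with its own range for each gene) in each naive, sham, contralateral and microbead library. The sham means of C4b and Ccl12 lie between the naive and microbead means, Cd63, Cd72, Ifi30 and Apoe in microbead libraries lie above all sham and naive libraries, and Tnf overlaps across groups.

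Most lysosomal genes had small positive values. Of 36 measured, 33 had a log2 fold change above 0, at a median of 0.20 (0.31 without naive 3), beside 0.07 for all genes from 100 to 1000 CPM and 0.19 for all of at least 1000 CPM. At an unadjusted p under 0.05 there were 0, against 7 higher in a fit of the sham and naive libraries alone. That fit also had 8 immediate early, 10 chaperone and 11 inflammatory genes higher at this threshold. Over all genes it had 273 higher of 12322 tested. The libraries of 4 lysosomal genes did not overlap, all higher in sham: Ctsa, Cd63 and, named after their values were seen, Ctsz and Atp6v0c, a subunit of the proton pump. Ctsl, the protease cathepsin L, was at 792, 951, 931 and 759 CPM in sham and 575, 638, 801 and 445 CPM in naive libraries (log2 fold change 0.48, SE 0.28). Ctsa, a second lysosomal protease, was at 1241, 1161, 1048 and 1041 against 683, 1002, 979 and 784 CPM without overlap (log2 fold change 0.38, SE 0.23). Among 27 Fc receptor and phagocytosis genes 15 had a log2 fold change above 0 at a median of 0.07 (0.013 without sham 2 and 0.11 without sham 1). Fcgr1, the high-affinity IgG receptor, was at 471, 285, 338 and 349 against 286, 292, 289 and 228 CPM (log2 fold change 0.40), and Rac1, a GTPase of engulfment, was at 109, 57.2, 172 and 362 against 441, 350.3, 275 and 312 CPM (log2 fold change -0.98, SE 0.46), lower at an unadjusted p of 0.0474.

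The 12 lower genes with the smallest p at 10 CPM or more came from outside the lists. Ppp1r9a, which encodes the actin-binding scaffold neurabin (mm10 chr6:4902917-5165661, plus strand), was at 81.3, 97.1, 68.1 and 77.8 CPM in sham and 199, 129, 148 and 158 CPM in naive libraries. All sham libraries lay below all naive ones, and the naive mean was 1.95-fold the sham mean (log2 fold change -0.97, SE 0.29, unadjusted p = 0.00371). It was called by the Wald test of DESeq2 with Benjamini-Hochberg adjustment (adjusted p = 0.0467), as were Paqr3 and Taf9b, but by neither edgeR nor limma voom.

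Luzp1, a leucine zipper protein, was at 15.4, 11.9, 20.5 and 25.1 against 86.5, 44.7, 60.5 and 45.2 CPM (log2 fold change -1.70, SE 0.60). Stxbp5, which encodes tomosyn, a brake on vesicle fusion, was at 7.70, 17.4, 8.50 and 7.66 against 52.1, 29.8, 23.2 and 40.7 CPM (log2 fold change -1.82, SE 0.68). H6pd, a sugar phosphate dehydrogenase of the endoplasmic reticulum, was at 15.95, 9.97, 13.7 and 24.3 against 43.8, 54.6, 35.4 and 60.4 CPM (log2 fold change -1.60, SE 0.60). The libraries of these 3 genes did not overlap, nor did those of Ascc2, Aak1 and Dnhd1, at log2 fold changes of -1.14, -1.46 and -2.74.

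Some large fold changes came from genes near the detection limit in the lower group. Paqr3 was at 0, 0.351, 0.835 and 0 CPM in sham and 4.75, 10.8, 3.02 and 35.0 CPM in naive libraries, and Taf9b, a relative of a TFIID subunit, was at 0, 0, 0 and 0.143 against 16.8, 9.29, 0.318 and 19.2 CPM. In the other direction, Zfp58, a zinc finger gene, was at 30.2, 29.6, 8.73 and 18.2 against 0, 0.0749, 1.27 and 0 CPM, also called by the Wald test of DESeq2 (adjusted p = 0.0231). Aldh9a1, an aldehyde dehydrogenase, was not among these and was read in every library. It was at 85.5, 44.2, 106 and 57.0 CPM in sham and 22.6, 32.3, 31.5 and 4.85 CPM in naive libraries (log2 fold change 1.68, SE 0.57).

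Transcripts of other retinal cells were set beside these results. Of 20 rod photoreceptor markers, all measured, 18 had a log2 fold change below 0, 0 were past an unadjusted p of 0.05, and the median was -0.35. It was -0.061 without naive 2 and -0.13 without naive 4, with 8 of 20 above 0 in each case, and -0.71 without naive 1, -0.64 without sham 1 and -0.54 without sham 2. Their summed level ran from 1229 to 2166 CPM in sham and from 520 to 4042 CPM in naive libraries, so the naive group enclosed the sham group. Sag, which encodes rod arrestin, was at 66.9, 62.1, 44.5 and 95.6 CPM in sham and 26.6, 268, 74.6 and 179.5 CPM in naive libraries, lowest in naive 1 and highest in naive 2. With the mean of the rod markers as a covariate the medians were 0.40 for the immediate early, 0.41 for the chaperone and 0.54 for the inflammatory list, against 0.38, 0.39 and 0.57.

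Of the other lists, amacrine and horizontal cell and erythrocyte markers had 0 genes measured. Retinal ganglion cell, neutrophil and lymphocyte markers had 1 each, bipolar cell and pigment epithelium, lens and anterior segment markers 2 each, endothelial cell and pericyte markers 3 and cone markers 5. Muller glia and astrocyte markers had 9 of 14, of which Apoe made up most of a summed level of 3657 to 5939 CPM in sham and 3815 to 7884 CPM in naive libraries. Mitochondrial transcripts made up 1.00 to 1.51% of reads in sham and 0.871 to 1.16% in naive libraries, and ribosomal RNA 14.6 to 17.7% and 12.96 to 22.5%. The part of these in the results above was not tested, apart from the fit with the rod markers.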

How the data were processed

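The 4 sham and 4 naive libraries were taken by title, but this comparison, the gene lists and the panel of state genes were chosen with earlier results of these data known. Expected counts, estimated reads per gene, were deposited by the authors unscaled, per the file headers, and FPKM, scaled by the authors to length and depth, served only to match their series-wide table, from which 0 values differed by more than 0.006. Per the submitters' processing notes Salmon 1.4.0, R 4.0.3, DESeq2 1.30.1 and mm10 were used, without roles. Which program made the tables is not stated there or in the labels. Coordinates are from GENCODE M21.

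Expected counts were rounded. With edgeR 4.0.16 in R 4.3.3, filterByExpr (minimum count 10), TMM and a robust quasi-likelihood model with 1 coefficient per group were fitted to all 14 libraries (10 residual degrees of freedom, common biological coefficient of variation 1.13), with Benjamini-Hochberg adjustment over 14279 genes and a threshold of 0.05. The procedure was also run on counts simulated from the fitted model, and what it recovered there is not reported here. Standard errors are the log2 fold change over the root of its F statistic. Named genes are the 12 higher and 12 lower with the smallest p at 10 CPM or more (predicted genes left out), up to 4 per list, the sort markers and the state panel, and the text gives those that fit its groups; some genes are not reported here. A list's genes are described by counts and median without a test. Alternatives were DESeq2 1.42.0 (size factors, Wald test), limma 3.58.1 voom, other filters, sham and naive alone, a replicate block, a rod covariate, a length trend removed and leaving libraries out. Totals were 7.06 to 13.6 M reads in the 8 libraries, and standard errors rest on the spread between libraries.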

Additional observations from a re-analysis of the deposited data

Results flagged for a closer look

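In groups of 4 libraries, a value was singled out when its gap to the nearest of the other 3 took up more of the group's range than Dixon's 95% critical value. Of 170 groups tested, over the genes of the text and the library measures, 19 were singled out. The test's rate of 5 in 100 by chance holds for independent groups of normally distributed values. These genes share the same libraries, and with 0 in the other 3 libraries any value is singled out. No excess over chance can therefore be read from the count. Sham 2 accounted for 6 of them. It was the highest sham library for Ciita at 61.4 CPM (others at most 6.02), Clec10a at 33.1 CPM and Cd209a at 85.5 CPM (others 0), Vim at 93.8 CPM (others at most 18.9) and Stxbp5 at 17.4 CPM (others at most 8.50), and the lowest for Aak1 at 7.73 CPM (others at least 34.4).

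Among naive libraries, naive 1 was low for Atf3 at 98.4 CPM (others at least 245) and Clec7a at 97.5 CPM (others at least 191). Naive 2 was high for H2-Ab1 at 452 CPM (others at most 118), Ciita at 2.55 CPM and Gpnmb at 9.59 CPM. Naive 4 was high for Vim at 18.2 CPM and Mgl2 at 0.329 CPM and low for Fcgr1 at 228 CPM (others at least 286). Naive 3 was high for Zfp58 at 1.27 CPM. In the sham group, sham 4 was high for Lpl at 49.95 CPM (others at most 24.7) and Taf9b at 0.143 CPM. Sham 1 had the fewest reads, 8.50 M, and the highest mitochondrial share, 1.51%.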

How the results depend on the processing

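The count of called genes was 0 in each direction in all but 2 of the alternatives. Without a filter on low counts 11 genes were called higher and 3 lower, among 25656 tested, of which 2148 had an unadjusted p under 0.05. With the Wald test of DESeq2 15 were called higher and 11 lower, with 438 adjusted p values not given. With limma voom 888 genes had an unadjusted p under 0.05 (smallest adjusted p = 0.323), against 380. Of 1735 comparisons of a named gene's log2 fold change with an alternative, 14 changed sign, all in genes whose interval crosses 0. Without naive 1 and naive 4, chosen after seeing the data, P2ry12 was at -0.086, Sall1 at 0.0788, Csf1r at -0.0161, Tgfbr1 at 0.000355, Axl at 0.4655 and Cst7 at -0.221. Axl was also at 0.193 with limma voom, and Xist at 0.125 with the length trend removed. Leaving out 1 library at a time gave -0.288 to 0.16 for Axl, -0.385 to 0.597 for Cst7, -4.24 to 0.572 for Gpnmb and -0.0795 to 0.00833 for Xist. The cause of these changes was not tested.

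The labels do not say whether replicate numbers pair the libraries. Deviations of same-numbered sham and naive libraries correlated at -0.03, 0.02, -0.05 and -0.02, and only sham 2 correlated best with its own number. Correlations of all sham and naive pairs ran only from -0.05 to 0.06, so this check cannot settle whether the numbers pair. With the replicate block in a fit of the 8 libraries, 0 genes were called, 470 had an unadjusted p under 0.05 and Cst7 was at -0.052, the only named gene to change sign, and no call changed. Of 630 comparisons of a median with an alternative, 20 moved by at least the spread between replicates, all of them medians of lists. The 630 include the median of all genes tested, which was not set against that spread. The spread between retinas, the 4 libraries a group and, for genes of low counts, depth limit the comparison, and the time after injection and the animals behind the retinas are not given in the labels.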

Other observations

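The gene groups not described above had medians from -0.01 to 0.46, beside -0.02 for all genes. Of 41 cytosolic ribosomal protein genes 20 had a log2 fold change above 0, at a median of -0.003 (0.28 without naive 1 and naive 4, and -0.096 to 0.083 with 1 library left out), and of 23 genes of TGF-beta signalling 11 did, at a median of -0.01 (-0.027 to 0.071). Of 35 nuclear genes of oxidative phosphorylation 22 did, at a median of 0.05 (-0.014 to 0.12), and of 13 genes of the mitochondrial genome 11 did, at 0.28 (0.15 without sham 1). mt-Nd2, a subunit of respiratory complex I, was at 129.97, 126, 99.2 and 103 CPM in sham and 85.7, 72.7, 76.0 and 94.3 CPM in naive libraries without overlap, and mt-Co1, a subunit of complex IV, was at 2294, 1647, 1610.4 and 1339.7 against 941, 1239, 1394 and 1539 CPM with overlap. Among 26 glycolysis and hypoxia genes 21 had a log2 fold change above 0, at a median of 0.30 (0.17 without naive 1). Without sham 2, 16 of 26 did, at a median of 0.22. Gapdh, a glycolytic enzyme, was at 160.1, 125, 163 and 141 against 90.6, 113, 99.6 and 116 CPM without overlap (log2 fold change 0.49, SE 0.31).

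Of 26 proliferation genes 18 had a log2 fold change above 0, 0 were past an unadjusted p of 0.05 and the median was 0.37 (0.15 without sham 4, 0.61 without naive 1 and 0.63 without sham 1). Pcna, the sliding clamp of DNA replication, was at 139, 114, 122 and 149 CPM in sham and 52.2, 91.3, 98.2 and 58.0 CPM in naive libraries, without overlap (log2 fold change 0.81, SE 0.42). Of 15 glucocorticoid response genes 10 did, at a median of 0.33 with 1 higher and 1 lower at an unadjusted p under 0.05, and of 18 circadian clock genes 10 did, at 0.21 (0.075 without sham 1). Per1, which belongs to both, was at 119, 162, 43.6 and 105 against 50.03, 67.2, 65.8 and 91.0 CPM, with sham 3 the lowest of the 8, and Nr1d1, a repressor of the clock, was at 29.9, 40.0, 14.3 and 14.2 against 1.63, 16.3, 3.58 and 5.34 CPM. Of 29 oxidative stress and iron genes 23 had a log2 fold change above 0, at a median of 0.17 (0.035 without sham 2), and of 29 lipid handling genes 19 did, at 0.12 (0.058 without naive 1 and 0.31 without naive 3). Of 26 wound repair and matrix genes 18 did, at a median of 0.46 with 1 higher and 2 lower at an unadjusted p under 0.05. The wound repair median was 0.18 without sham 2, 0.30 without naive 1, 0.97 without naive 4 and 0.052 without sham 2 and naive 1. Xist, which is transcribed from the inactive X chromosome, was at 1583, 1695, 1456 and 1449.7 CPM in sham and 1590.3, 1512, 1709.7 and 1509 CPM in naive libraries, and the Y-linked genes Ddx3y, Eif2s3y and Uty had 0 reads in all 8.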
